A study of Mus musculus with 8 samples.

Results

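The expression arrays of 7 mouse iPSC samples were divided by the sign of their scores on their main axis of variation. The 3 arrays OSKH 1, OSK 1 and OSK 2 had positive scores, and the 4 arrays OSKH 2, OSKH 3, OSKH 4 and OSK 3 had negative scores. The scores were graded with no wide break at this cut, and the division did not follow the reprogramming groups. The 3 arrays are called the trio here and the 4 arrays the quartet, and both hold samples of either group. The members were chosen from measured values, the position of each array along that axis, so every difference between trio and quartet is given as a description and has no test. The 7 arrays are all the iPSC arrays among the 8 of the series. The remaining array, of 1 sample labelled B6J-23 ESC (embryonic stem cells), serves only as a reference.

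All samples were undifferentiated cells of the C57BL/6J strain, from which total RNA was labelled with Cy3 and hybridised to a one-colour Agilent array. The OSK iPSCs, 3 arrays, are the control group of the series, and the OSKH iPSCs, 4 arrays, differ from them by whatever the H denotes. The labels do not spell the letters out. They are taken here as the reprogramming factors Oct4 (Pou5f1), Sox2 and Klf4, which both groups then share, and as the linker histone of the oocyte, H1foo, now named H1f8. Nothing in the labels ties the arrays of a group to separate clones, cultures or animals, so a p-value between groups measures the spread of these samples, which may be technical. The labels give neither the passage nor the culture medium.

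Pluripotent mouse cells move along a continuum from a naive state, like the preimplantation epiblast, through a formative state to a primed state, like the epiblast after implantation. Naive cells are held by the cytokine LIF, which acts through its receptor chains Lifr and Il6st, the kinase Jak1 and the transcription factor Stat3, and by factors such as Klf4, Klf5, Tbx3, Esrrb and Tfcp2l1. The exit from this state is driven by FGF and Nodal signals and is marked by Fgf5, Otx2 and the Zic factors, and Dnmt3l, a cofactor of de novo DNA methylation, is active around the same transition. Each level is the log2 of a probe's signal after subtracting the array's 75th percentile on the same scale, so that 0 means a signal at that percentile, and a difference of 1 is 2-fold. Levels by array are listed for the trio in the order OSKH 1, OSK 1 and OSK 2, and for the quartet in the order OSKH 2, OSKH 3, OSKH 4 and OSK 3.

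The first principal axis of the 7 iPSC arrays, computed over 22685 features (14393 of them named genes), held 36.6% of the variance, the second 27.6% and the third 16.0%. The scores of the trio were 57.1, 29.4 and 4.96, and those of the quartet were -17.9, -21.7, -37.9 and -14.0. The step from OSK 2 to OSK 3 was smaller than the steps between neighbouring arrays within the trio. OSK 2, at 4.96, was the array just inside the trio, and OSK 3, at -14.0, the array just outside it. When the ESC array was projected on the axis it fell between them, at -4.42. OSKH 1 and OSKH 4, at the ends of the first axis, were also the highest on the second axis, at 32.8 and 46.3, so those arrays stood apart from the other iPSC arrays in more than the split.

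**Figure D1:**
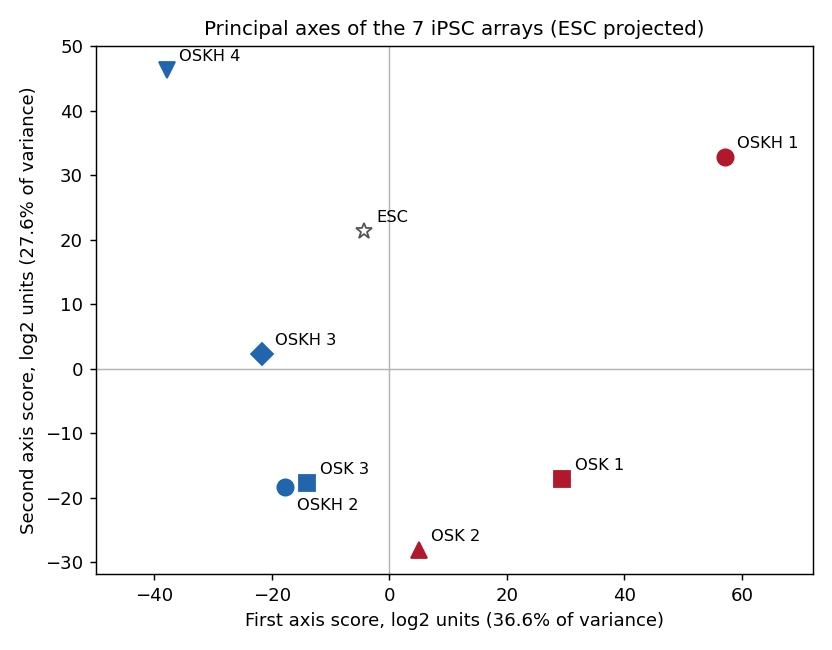
Scores of the 8 arrays on the first 2 principal axes of the iPSC arrays, in log2 units, with the trio in red, the quartet in blue and the projected ESC array as an open star. The trio lies between 4.96 and 57.1 on the first axis and the quartet between -37.9 and -14.0.

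Both reprogramming groups had arrays on either side of the axis. The mean score was -5.10 ± 42.3 (SD, n = 4) for OSKH and 6.80 ± 21.8 (SD, n = 3) for OSK, a difference of -11.9, which is given with no test because the axis was chosen for a split that runs across the groups. By root mean square log2 difference over all features, OSKH 1 was nearest to OSK 1 (0.491), and OSKH 2 and OSK 3 were nearest to each other (0.335). OSK 2 was 0.376 from OSK 1 in the trio and almost as near to OSK 3 in the quartet, at 0.383. When any 1 of the 7 arrays was left out, the remaining trio arrays still scored above the remaining quartet arrays, an order that the choice of the sides partly fixes. Without OSKH 1 the first axis held 43.5% of the variance and OSK 1 and OSK 2 scored 35.4 and 27.4, with the quartet at 3.35, -15.3, -56.6 and 5.76. Without OSKH 4 it held 46.4%, and the trio scored 62.9, 17.6 and -8.40 against -26.9, -22.4 and -22.8 for OSKH 2, OSKH 3 and OSK 3.

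All 8 arrays lay on 1 slide, and position on it moved with the split in part. The OSKH 1 and OSK 1 arrays lay in slide column 2, OSKH 3 and OSK 3 in column 4, and OSKH 4 with ESC in column 1, so that in these columns side and column cannot be told apart. Column 3 held an array of each side, OSK 2 and OSKH 2, and the difference between them is given below as the value within column 3. Both slide rows held both sides, with iPSC scores from -21.7 to 57.1 in row 1 and from -37.9 to 29.4 in row 2. The 2 arrays of column 4 had the largest share of probes above background of their rows, 59.0% and 55.4%, against 51.4% to 54.5% on the other arrays. The signal at the 75th percentile was 424 to 501 by array. The part of slide position in the split was not tested beyond these values.

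For 1744 features, 7.69% of those measured, all trio arrays lay above all quartet arrays, and for 2164 features, 9.54%, all quartet arrays lay above all trio arrays. Such features are called apart below. With a difference of at least 1 log2 unit as well, 128 features (0.564%) were higher in the trio and 292 (1.29%) in the quartet. With another background correction (normexp, here and below with an offset of 50 added to the signals) these counts were 33 and 77. An added offset makes log2 differences of dim probes smaller by construction, and its part here was not tested. Without OSK 2, when fewer arrays had to be separated, the counts were 358 and 560. These shares are the background for the counts below, and because the rule was made from the same arrays nothing is read from them alone. Limma, run on the groups of the series, called 0% of the 22685 features between OSKH and OSK at an adjusted p under 0.05, with 1470 at an unadjusted p under 0.05 and a smallest adjusted p of 0.463. OSKH 1, OSKH 2 and OSKH 3 lay in slide row 1 and OSKH 4 with all OSK arrays in row 2, so group and row can hardly be told apart. With slide row as a block, limma called 47 features, 3 of which were apart between trio and quartet, but in that fit OSKH and OSK meet only in row 2, where OSKH 4 is the 1 OSKH array.

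The sides can also be set against each other within each group, as OSKH 1 against the other OSKH arrays and as OSK 1 and OSK 2 against OSK 3. These comparisons have no array in common, but the sides were found in the same arrays, so a shared direction is partly built in and no measure of it is given.

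**Figure D2:**
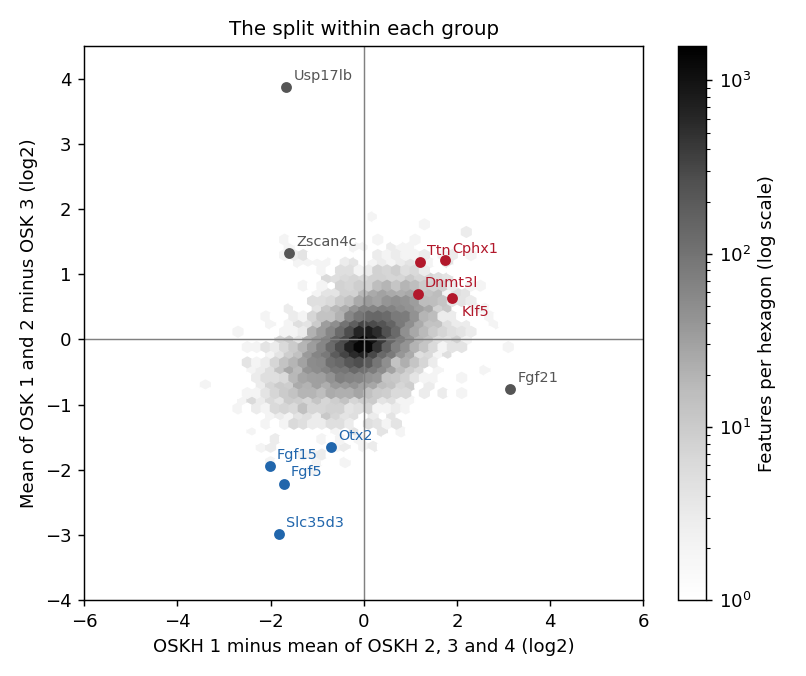
Difference of OSKH 1 from the mean of OSKH 2, 3 and 4 (horizontal, log2) against the mean of OSK 1 and 2 minus OSK 3 (vertical, log2), for 22685 features shaded by number per hexagon. Named genes higher in the trio are red, those higher in the quartet blue and those that overlap grey. Fgf5, Fgf15 and Slc35d3 were lower on the trio side in both groups, and Usp17lb, Zscan4c and Fgf21 had opposite signs. Usp17lb was well above background on 3 of the 7 iPSC arrays and Fgf21 on 4.

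All 7 iPSC arrays expressed the pluripotency genes. Each of 8 markers (Pou5f1, Sox2, Nanog, Zfp42, Esrrb, Dppa5a, Fgf4 and Tdgf1) was well above background on every array, and their mean level ran from 4.66 to 5.22 in the trio and from 4.55 to 4.80 in the quartet. Pou5f1, the central factor of pluripotency, was at 6.23, 6.14 and 6.15 in the trio and at 6.17, 6.27, 6.09 and 6.25 in the quartet. Nanog was at 2.20, 1.56 and 1.33 against 1.43, 1.91, 2.28 and 1.36. H1f8, taken to be the additional factor of the OSKH group, was low on both sides, with a mean of -1.41 ± 0.23 (SD, n = 3) in the trio and -1.42 ± 0.25 (SD, n = 4) in the quartet. Whether its probe detects a transgene, the endogenous gene or both was not examined.

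Markers of other cell types were uneven by array, and OSKH 4 stood high for mesendoderm, fibroblast and trophectoderm markers. The mean of 4 measured mesendoderm markers (T, Eomes, Gsc and Foxa2, transcription factors of the primitive streak; Mixl1 was not measured) was 3.21 on OSKH 4, against -3.52 to -2.72 in the trio and -2.84 to -1.76 on the other quartet arrays. The mean of 6 measured fibroblast and feeder markers was 1.34 on OSKH 4 and 1.36 on ESC, against -1.86 to -1.01 in the trio and -1.25 to -0.63 on the other quartet arrays. The mean of 3 measured trophectoderm markers was -0.77 on OSKH 4, against -3.71 to -2.65 in the trio and -3.80 to -3.54 on the other quartet arrays. Only 1 of them was above background on all 7 arrays. Of 5 primitive endoderm markers only Sox7 passed the filter, and it was above background on 2 arrays of each side. Sox7 was highest on OSKH 1, at -1.69, against -3.47 on OSKH 4. Gata6, Gata4, Sox17 and Pdgfra did not pass it. Neural markers ran from -1.48 to -0.57 in the trio and from -1.54 to -0.48 in the quartet, with OSKH 4 at -1.42. Blood markers ran from -2.22 to -1.98 in the trio and from -2.57 to -1.97 in the quartet. In RNA of a whole culture, fewer cells of a type and less RNA per cell cannot be told apart.

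The genes that most clearly divided the sides were higher in the quartet. Of genes well above background on all 7 arrays, the 15 with the widest gap between the sides were 2.08-fold to 6.46-fold higher in the quartet, and the 15 with the widest gap the other way were 1.84-fold to 2.73-fold higher in the trio. Fgf15, a secreted fibroblast growth factor, had the widest gap of these genes, at -1.20, -1.42 and -1.17 in the trio and at 0.83, 1.00, 0.64 and 0.64 in the quartet. Its difference was -2.04, with ESC at 0.36, close to the quartet. Slc35d3, a nucleotide sugar transporter, was at -2.20, -3.24 and -2.20 against -0.34, -0.17, -0.64 and 0.26. For both genes the gap between the sides was wider than the range within either side.

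Levels of other leading quartet genes differed in how much they rested on OSKH 4. Penk, the precursor of the enkephalin peptides, was at -1.55, -2.001 and -1.10 in the trio and at 0.56, 0.43, 3.17 and 0.39 in the quartet, a difference of -2.69 of which OSKH 4 gave a large share. Apln, the ligand of the apelin receptor, was at -2.87, -1.63 and -2.16 against -0.24, -0.19, 1.69 and -0.70, again highest on OSKH 4. Lypd6, a membrane-anchored modulator of Wnt signalling, had no such high array, with -2.49, -1.996 and -2.12 against -0.42, -0.02, -0.18 and -0.47. A second probe for Lypd6 gave a smaller difference, -0.49 against -1.93 for the probe used. Marcks, an actin-binding substrate of protein kinase C, had the least spread of them, at 3.02, 2.99 and 3.01 against 3.99, 4.20, 4.08 and 3.98. The others were Car14 (4.60-fold higher), a membrane carbonic anhydrase, Rftn1 (4.04-fold), a lipid raft protein, Cnksr2 (2.66-fold), a scaffold of Ras signalling, Cracd (3.23-fold), which inhibits the capping of actin filaments, Tox3 (2.57-fold), Camk1g (5.04-fold), Fgf5 and the X-linked Tceal3 (3.19-fold) and Tceal6 (3.11-fold). The Tceal genes are close paralogs whose probes may share signal.

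**Figure D3:**
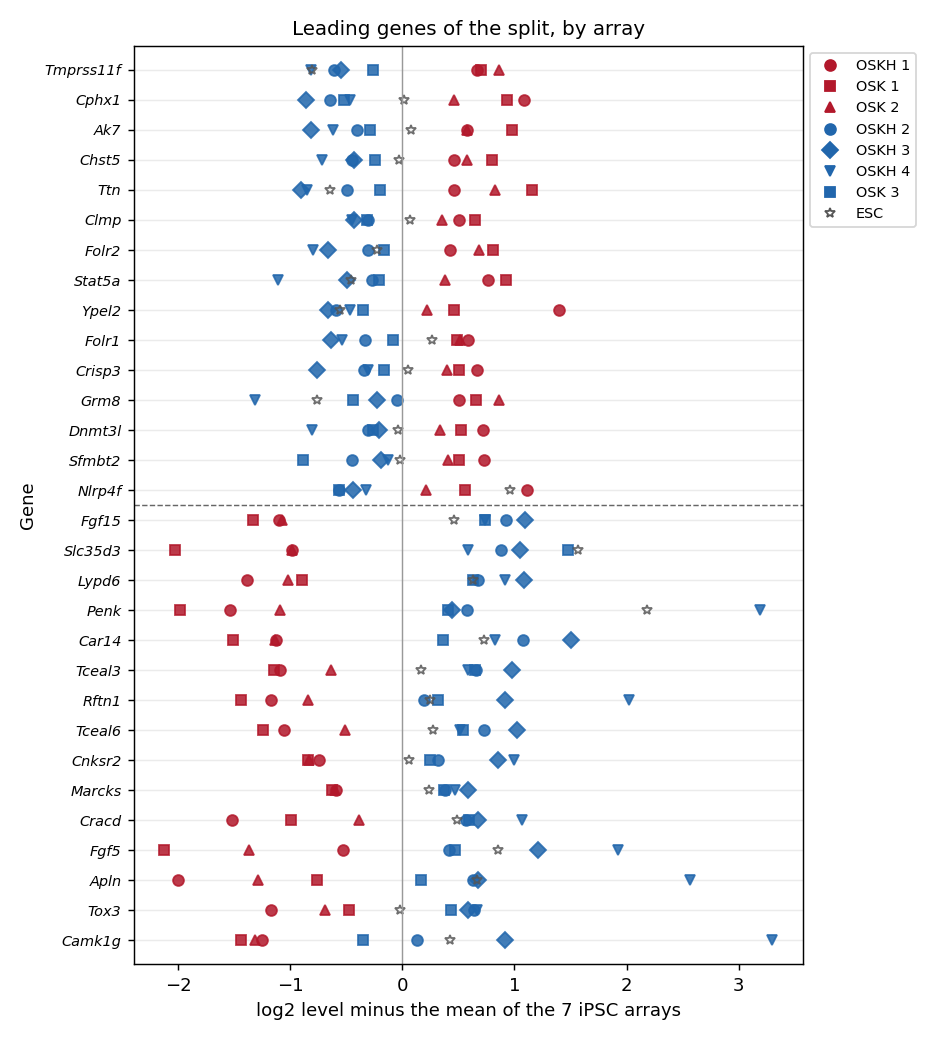
Levels of 15 genes higher in the trio (above the dashed line) and 15 higher in the quartet (below), each minus its mean over the 7 iPSC arrays, in log2 units, with 1 symbol per array. The genes were chosen for not overlapping between red and blue symbols. ESC, the open star, lies nearer to the blue symbols for Fgf15 and nearer to the red for Nlrp4f, and OSKH 4 is far to the right for Penk, Apln and Camk1g.

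The differences of the leading trio genes reached at most 2.73-fold. Cphx1, a homeobox gene of the oocyte and early embryo, was at 2.58, 2.42 and 1.95 in the trio and at 0.84, 0.63, 1.03 and 0.97 in the quartet, 2.73-fold higher, with ESC between the sides at 1.51. Dnmt3l was at 6.46, 6.26 and 6.08 against 5.43, 5.53, 4.94 and 5.48. Nlrp4f, an oocyte gene of the NLR family, was at 3.08, 2.52 and 2.17 against 1.40, 1.52, 1.64 and 1.40, with ESC at 2.92, and its family has close copies. The folate receptors Folr1 (1.90-fold) and Folr2 (2.18-fold), Stat5a (2.31-fold), a transcription factor of cytokine signalling, and Sfmbt2 (1.94-fold), an imprinted Polycomb gene, were also higher in the trio. So were Ttn (2.68-fold), which encodes the giant muscle protein titin, Tmprss11f (2.47-fold), a serine protease, Ak7 (2.37-fold), an adenylate kinase of cilia, Chst5 (2.10-fold), Clmp (1.84-fold), Ypel2 (2.31-fold), Crisp3 (1.88-fold) and the glutamate receptor Grm8 (2.27-fold).

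Fewer genes were seen on 1 side alone. Among genes with a symbol (14393 before predicted gene models were left out), 49 were well above background on all quartet arrays and on no trio array. The other way round there were 3. The number of symbols left after that step is not given here, so these counts have no share and nothing is read from them. Such genes passed the filter of 3 arrays through the side where they were seen. Such counts depend on detection, and the share of probes above background was 54.3%, 51.5% and 51.6% in the trio and 54.5%, 59.0%, 51.4% and 55.4% in the quartet. The part of detection in these counts was not tested. For genes seen on 1 side alone a fold is a bound, set by the lowest signal above background on the dim arrays. Spon1, an extracellular matrix protein, was at least 6.16-fold higher in the quartet, where it was at -1.51, -1.22, -2.34 and -1.71, and not well above background at -4.36, -5.00 and -5.08 in the trio. H2-Oa, a class II histocompatibility gene, was at least 3.11-fold higher, the ephrin receptor Ephb1 at least 2.90-fold, the GTPase Rem2 at least 2.66-fold, Tmem176a at least 2.54-fold and the angiotensin receptor Agtr1a at least 2.44-fold. In the trio, the cytokine subunit Il23a was at least 2.37-fold higher, the cystatin Cst13 at least 2.36-fold and the amino acid transporter Slc6a7 at least 1.89-fold. Il23a and Slc6a7 were not well above background on ESC either, so they passed the filter through the trio alone. Among all genes apart by at least 1 log2 unit, 48 had further probes, and 52 of these 53 other probes had the same direction. The genes were chosen for a large difference on the same arrays, so this count and the correlation over probes (r = 0.903) are partly built in. Some other probes gave little difference, as for Adgrv1 (-0.04 against -1.06 for the probe used) and Asb4 (0.03 against -1.12).

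Genes of the naive state were mostly higher in the trio. By mean, 24 of 27 measured were higher there, with a median difference of 0.49 against -0.02 over all features. Of the 27, 5 were apart with the trio higher (Klf5, Dnmt3l, Zfp42, Dppa4 and Dppa2) and 1 with the quartet higher (Lin28a, -0.24), where the background is 7.69% and 9.54%. Dnmt3l, placed above around the exit from this state, is counted here because the list holds it, and again among chromatin regulators. Klf5, a Krüppel-like factor that sustains naive cells, was at 4.75, 3.52 and 3.28 in the trio and at 2.74, 2.77, 3.07 and 2.76 in the quartet, 2.02-fold higher and highest on OSKH 1. Zfp42, the naive marker also called Rex1, was at 2.76, 2.52 and 2.23 against 2.03, 1.85, 2.09 and 1.77. The sides came within 0.15 of each other for Zfp42 and within 0.21 for Klf5.

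Other naive factors had a similar mean difference with overlapping sides, and in each of them OSKH 4 lay above OSK 2. Tbx3, a T-box factor, was at 3.95, 1.84 and 1.64 against 0.57, 1.35, 2.36 and 1.26. Esrrb, an orphan nuclear receptor, was at 6.86, 5.76 and 5.10 against 4.64, 5.06, 5.46 and 4.95. Klf4 was at 3.69, 2.65 and 2.42 against 1.69, 2.01, 2.63 and 2.12, and Nr0b1, a nuclear receptor of the same network, was at 4.69, 3.52 and 3.02 against 2.48, 2.73, 3.33 and 3.23. In each of these 4 genes OSKH 1 was the highest array and OSKH 2 the lowest. The median of the naive list was 0.29 without OSKH 1. It was 0.77 within OSKH, 0.25 within OSK, 0.86 in slide row 1, 0.15 in slide row 2 and 0.30 in column 3.

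Most genes of the LIF and STAT3 pathway were higher in the trio, receptors as well as targets. By mean, 23 of 25 measured genes were higher there, with a median of 0.50, and 8 were apart, all with the trio higher. With normexp background correction the median was 0.23. The receptor chain Lifr was at 2.06, 2.12 and 1.71 in the trio and at 1.27, 1.17, 1.50 and 1.32 in the quartet, 1.57-fold higher. The shared chain Il6st was at 1.74, 1.95 and 1.60 against 1.34, 1.40, 1.48 and 1.17. Jak1 (1.20-fold) and Stat3 (1.14-fold) were apart by no more than 0.03, so that the sides nearly touched. Among targets of Stat3, Socs3, the feedback inhibitor of the receptor, was at 4.76, 4.24 and 4.10 against 3.98, 3.64, 3.65 and 3.76. The survival kinases Pim1 (1.60-fold) and Pim3 (1.44-fold) were apart too, and Klf5, counted in the naive list, is the eighth. The ESC array was near the trio for these genes, at 1.93 for Lifr, 4.34 for Socs3 and 2.46 for Pim3. The median of the list was 0.72 within OSKH, 0.39 within OSK, 0.80 in row 1, 0.17 in row 2 and 0.44 in column 3.

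Genes of the formative and primed states were higher in the quartet. By mean, 20 of 24 measured were higher there, with a median difference of -0.50, and 5 were apart, all with the quartet higher (Fgf5, Otx2, Krt18, Zic2 and Sox4). Fgf5, the classic growth factor of cells leaving the naive state, was at 0.99, -0.60 and 0.15 in the trio and at 1.94, 2.73, 3.45 and 1.99 in the quartet, 5.08-fold higher, with ESC at 2.38. Otx2, which redirects Pou5f1 to formative enhancers, was at 3.85, 2.58 and 2.08 against 4.12, 4.63, 4.88 and 3.98. OSKH 1 came within 0.13 of the quartet for Otx2, and OSK 1 and OSK 2 were far below it. Zic2, a zinc finger factor of the primed state, was at 1.19, 1.08 and 0.82 against 1.76, 2.41, 1.94 and 2.19.

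Of the 35 lists, only the formative, cholesterol, imprinted and germline lists had means that did not overlap between the sides. Over all features 17.2% did not overlap, so nothing is read from this alone. The mean level of the formative list was 2.53, 2.65 and 2.76 in the trio and 3.20, 3.36, 3.33 and 3.22 in the quartet, with ESC between at 3.11. Members with overlapping sides included Fst, an activin inhibitor, at 1.91, 0.11 and 0.32 against 1.41, 2.69, 3.07 and 0.86. Cdh2, the cadherin of primed cells, was at -0.24, -0.05 and 0.80 against 0.80, 0.52, 3.18 and 0.87, high on OSKH 4 alone. The median was -0.84 within OSKH, -0.48 within OSK, -0.89 in row 1, -0.23 in row 2 and -0.36 in column 3.

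**Figure D4:**
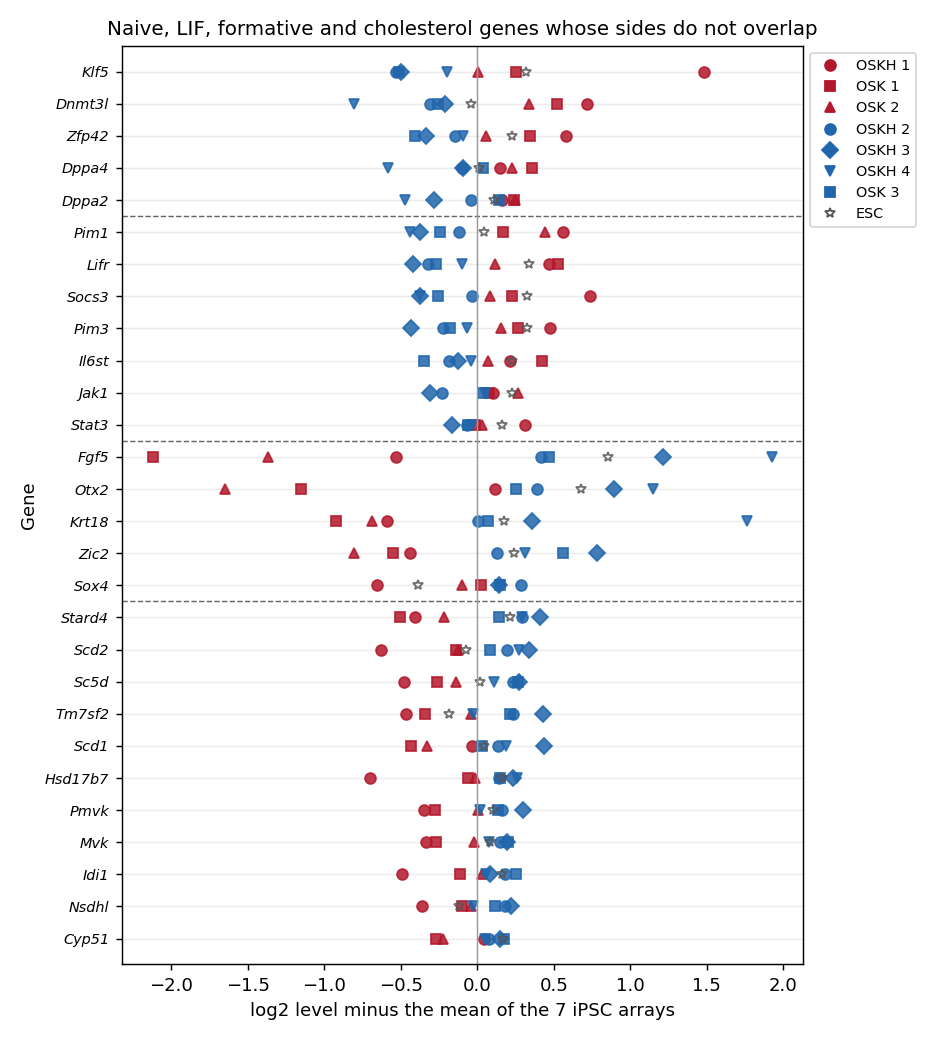
Levels of the genes that did not overlap between the sides in the naive, LIF and STAT3, formative and primed, and cholesterol synthesis lists (separated by dashed lines from the top), minus the mean of the 7 iPSC arrays, in log2 units. Only genes whose red and blue symbols do not overlap are drawn, 5, 7, 5 and 11 by list, with Klf5 and Dnmt3l in the naive block. OSKH 1 is the most extreme trio array for Klf5 and for 8 of the 11 cholesterol genes drawn.

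Receptors and effectors of Nodal and TGF-beta signalling were apart with the quartet higher in 7 of 30 measured genes, and none was apart the other way. They included the type I and II receptors Tgfbr1 (1.26-fold) and Tgfbr2 (2.33-fold), the activin receptor Acvr2b (1.38-fold), the BMP receptor Bmpr1a (1.14-fold), the effector Smad3 (1.33-fold) and the protease Furin (1.36-fold), which matures Nodal. Acvr2b was at 4.61, 4.93 and 5.10 in the trio and at 5.36, 5.31, 5.35 and 5.36 in the quartet. The list as a whole was divided, with 12 members higher by mean in the trio, 18 in the quartet and a median of -0.15, which was -0.042 without OSKH 4. In the FGF pathway, the receptor Fgfr1 (1.32-fold), the ERK feedback gene Il17rd (1.43-fold) and Ccnd1 (1.53-fold), the cyclin of the G1 phase, were apart with the quartet higher, although 23 of 28 genes of that list were higher by mean in the trio and its median was 0.10, or 0.20 without OSKH 4. These 3 of 28 are near the background of 9.54%. Fgf8, a growth factor of the primitive streak, was at -0.97, 0.19 and 0.64 against 1.26, 1.98, 3.65 and 1.22.

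Most cholesterol synthesis genes were lower in the trio. By mean, 27 of 29 measured were higher in the quartet, and 13 were apart, all with the quartet higher, against a background of 9.54%. The differences were small, with a median of -0.26, and of -0.15 without OSKH 1. Among the 13 were the mevalonate kinases Mvk (1.29-fold) and Pmvk (1.29-fold), the isomerase Idi1 (1.26-fold), the sterol enzymes Cyp51 (1.20-fold), Tm7sf2 (1.41-fold), Nsdhl (1.22-fold), Hsd17b7 (1.37-fold) and Sc5d (1.43-fold), the sterol carrier Stard4 (1.58-fold) and the desaturases Scd1 (1.38-fold) and Scd2 (1.43-fold). Stard4 had the widest gap, at 1.00, 0.90 and 1.19 in the trio and at 1.70, 1.82, 1.70 and 1.55 in the quartet. The mean level of the list was 2.40, 2.61 and 2.73 against 2.89, 2.96, 2.76 and 2.88, so that OSK 2 and OSKH 4 nearly met. The median was -0.47 within OSKH, -0.19 within OSK, -0.51 in row 1, -0.11 in row 2 and -0.13 in column 3.

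These genes are known targets of the SREBP factors, which bind sterol regulatory elements, and the LIF targets are known for STAT elements. The letters TCACNCCAC were searched on both strands in the RefSeq promoter windows of build GRCm38.p6, from 250 bases before to 50 bases after each start, and were found in 1.24% of 32851 windows. A window was matched for 18 of the 29 cholesterol genes, and 1 of them, Hmgcs1, held these letters, beginning at base -137 relative to its start. The letters TTCCNGGAA were found in 1.15% of windows and in 1 of 22 matched LIF and STAT3 genes, Cish, beginning at base 1 after the start. None of the 8 cholesterol and 7 LIF genes that were apart and had a window held them. The 2 windows are shown because they are the only ones of their lists with a match, on the plus strand at chr13:119690101-119690400 for Hmgcs1 and chr9:107296409-107296708 for Cish, with the match in capitals.
Hmgcs1: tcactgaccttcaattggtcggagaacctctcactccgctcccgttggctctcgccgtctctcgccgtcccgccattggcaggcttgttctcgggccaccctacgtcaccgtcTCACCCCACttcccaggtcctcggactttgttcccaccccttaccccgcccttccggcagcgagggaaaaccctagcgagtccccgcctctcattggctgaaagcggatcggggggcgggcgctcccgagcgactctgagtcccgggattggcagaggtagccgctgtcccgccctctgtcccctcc
Cish: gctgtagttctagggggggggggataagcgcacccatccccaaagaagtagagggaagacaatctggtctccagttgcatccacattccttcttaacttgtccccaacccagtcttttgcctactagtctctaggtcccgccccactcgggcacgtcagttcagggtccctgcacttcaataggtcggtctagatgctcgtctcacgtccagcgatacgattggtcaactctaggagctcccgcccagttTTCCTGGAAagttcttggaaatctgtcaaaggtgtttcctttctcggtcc
Both genes overlapped between the sides. Hmgcs1, the first committed enzyme of the pathway, was at 5.60, 6.10 and 6.35 in the trio and at 6.24, 5.96, 6.12 and 6.38 in the quartet, and Cish, a feedback inhibitor of cytokine receptors, was at 0.48, 0.15 and 0.02 against 0.28, 0.33, 0.68 and -0.03.

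Germline genes were higher in the trio. By mean, 19 of 23 measured were higher there, with a median of 0.63, and 8 were apart, all with the trio higher. With normexp background correction the median was 0.38. The mean of the list did not overlap, at 0.26, 0.20 and 0.23 in the trio against -0.25, -0.29, -0.28 and -0.32 in the quartet, and ESC lay between at -0.10. Hormad1, a protein of meiotic chromosome axes, was at 0.17, 0.37 and -0.53 against -1.02, -1.15, -1.24 and -1.31, 2.26-fold higher, and ESC was below all of them at -1.56. Sycp1, of the synaptonemal complex, was at -0.87, -1.08 and -0.93 against -1.54, -1.56, -1.98 and -1.29. Tex19.1 (1.59-fold), which restrains retrotransposons, Piwil2 (1.70-fold), of the piRNA pathway, Rnf17 (1.35-fold), Fkbp6 (1.92-fold), the egg coat gene Zp3 (1.69-fold) and Taf7l (1.14-fold) were apart too. Stra8, the gatekeeper of meiosis, overlapped, at 2.62, 4.67 and 4.96 against 3.54, 2.44, 2.43 and 3.54. The median was 0.46 within OSKH, 0.37 within OSK, 0.38 in row 1, 0.47 in row 2 and 0.37 in column 3.

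Among chromatin regulators, 6 of 35 measured were apart, all with the trio higher, where the background is 7.69%, and the median was 0.07. They were Dnmt3l, the Polycomb genes Eed (1.43-fold), Suz12 (1.13-fold), Jarid2 (1.29-fold) and Pcgf6 (1.12-fold), and Trim28 (1.14-fold), the corepressor that silences retroviral elements. Eed was at 6.47, 6.06 and 5.90 in the trio and at 5.61, 5.63, 5.63 and 5.63 in the quartet, whose 4 arrays were almost equal. The list mean overlapped, since OSK 3 was at 3.36, above OSK 2 at 3.30. The median of the list was 0.15 within OSKH, but -0.065 within OSK. It was 0.15 in row 1, 0.0076 in row 2 and 0.05 in column 3. No linker histone of 8 measured was apart.

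Imprinted genes are expressed from 1 parental copy. Of 25 measured, 5 were apart with the quartet higher and 2 with the trio higher, where the background is 9.54% and 7.69%. The 2 with the trio higher are near that background. Sfmbt2, named above, is imprinted too but was not in this list. Magel2 (1.96-fold), Dlk1 (1.70-fold), Sgce (1.62-fold), Grb10 (1.52-fold) and Gnas (1.26-fold) were higher in the quartet, and Peg10 (1.26-fold) and Slc38a4 (1.15-fold) in the trio. Magel2 was at -0.26, 0.02 and 0.28 in the trio against 1.10, 1.12, 0.80 and 0.92. Dlk1, an inhibitor of adipocyte differentiation, was at 0.00, 0.94 and 0.85 against 1.56, 1.40, 1.03 and 1.47. Mirg, a noncoding RNA of the same imprinted domain, overlapped, at 3.60, 3.84 and 2.69 against 4.84, 4.54, 3.84 and 4.41. The median of the list was -0.12, and it was -0.060 without OSK 1, -0.22 without OSK 2, -0.19 without OSK 3 and 0.02 within column 3.

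**Figure D5:**
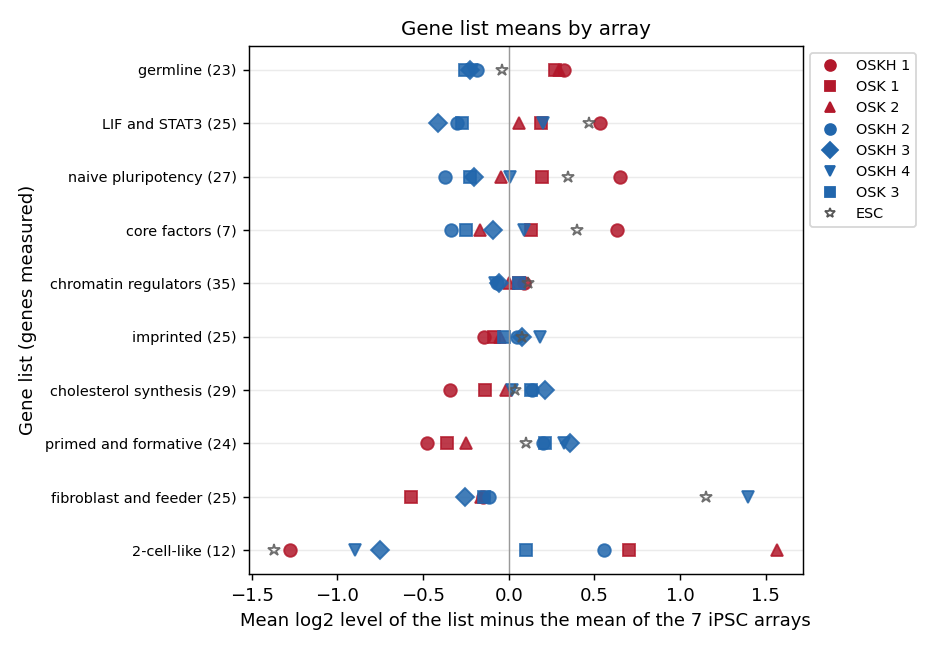
Mean level of 10 gene lists by array, minus the mean of the 7 iPSC arrays, in log2 units, with the number of genes measured in brackets. Trio and quartet do not overlap for germline, formative and primed, cholesterol and imprinted genes, although for cholesterol and imprinted genes they nearly meet. OSKH 4 and ESC stand apart for fibroblast and feeder genes, and the 2-cell-like list runs from OSKH 1 to OSK 2 across both sides.

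Other lists varied across the arrays in ways that did not follow the sides. The 2-cell-like genes, among them Zscan4c, Zscan4f and Usp17lb, which mark a rare totipotent-like state in ESC cultures, had a mean of -1.76, 0.22 and 1.08 in the trio and 0.07, -1.24, -1.39 and -0.39 in the quartet, so that OSKH 1 and OSK 2 lay at opposite ends. None of 12 was apart, and many are near-identical copies whose signals cannot be separated. Some stress genes were high on OSKH 1. Ddit3, a factor of the unfolded protein response, was at 1.29 there and between -1.87 and -1.33 on the other iPSC arrays, and Gdf15, a stress cytokine, was at 1.58 against -1.30 to -0.43. The mean of 36 amino acid stress genes was highest there, at 3.14 against 2.15 to 2.54, while those of 21 heat shock genes, at 4.41 against 4.48 to 4.53, and of 29 p53 targets, at 1.56 against 1.75 to 2.05, were lowest there. The 31 interferon and innate immunity genes had a mean of 0.42, -0.03 and -0.54 against 0.82, 0.98, -0.37 and -0.23. The arrays of slide row 1 (OSKH 1, OSKH 2, OSKH 3 and ESC, the last at 0.70) were all above those of row 2. Among those genes, 5 were apart with the quartet higher, including Psmb8, an immunoproteasome subunit, at -1.68, -1.48 and -2.51 against 0.51, 0.45, 0.88 and -1.14. The fibroblast list, with a median of -0.70, was 0.76 on OSKH 4 and between -1.20 and -0.75 on the other iPSC arrays, and its median was 0.07 within row 1 and -0.12 without OSKH 4. The mesendoderm list, with a median of -0.57, was at 0.41 on OSKH 4 and between -2.56 and -1.98 on the others, and its median was -0.085 without OSKH 4 and -0.35 without OSK 1.

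The metallothioneins Mt1 and Mt2, which bind zinc and copper, were higher in the trio, Mt1 at 8.84, 7.46 and 7.24 against 6.34, 6.77, 7.13 and 6.80, with ESC at 8.25. The keratins Krt8 (2.57-fold) and Krt18 (2.43-fold), partners in simple epithelia, were higher in the quartet and highest on OSKH 4, with Krt8 at -0.43, -0.74 and -0.51 against 0.01, 0.19, 3.13 and -0.13. Slc16a3, a lactate exporter, was at 3.73, 3.90 and 4.02 against 5.16, 5.90, 4.79 and 4.85, the only 1 of 23 glycolysis genes that was apart. Neural progenitor genes were apart with the quartet higher in 7 of 25 and with the trio higher in 1, where the background is 9.54% and 7.69%. The mean of this list overlapped. The list median was -0.14, or -0.034 without OSKH 1, -0.040 without OSK 3 and 0.12 in column 3. Nes, an intermediate filament of progenitors, was at 0.87, 1.65 and 2.23 against 2.50, 2.27, 2.59 and 2.63, while Tubb3 was 0.36 higher in the trio. Genes of basic cell functions lay near the median of all features. The medians were -0.05 for 38 ribosomal proteins, 0.02 for 34 respiratory chain genes, -0.01 for 33 cell cycle genes and 0.00 for 19 aminoacyl-tRNA synthetases.

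The ESC array lay on neither end of the split. Its root mean square difference was 0.515 to 0.529 from the trio arrays and 0.450 to 0.455 from the quartet arrays, so it was nearer to the quartet by a small margin. Over all features, the ESC level was nearer to the quartet mean in 55.7%. This share was 68.0% (87 of 128) of the features apart by at least 1 log2 unit with the trio higher, and 77.7% (227 of 292) of those with the quartet higher. By list, ESC was with the trio side for LIF genes (a mean of 1.50, against 1.09 to 1.57 in the trio and 0.62 to 1.24 in the quartet) and naive genes (4.35, against 3.96 to 4.65 and 3.63 to 4.01), and between the sides for formative and germline genes. A single ESC array gives no spread for these positions.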

How the data were processed

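Arrays were grouped by their sample titles. Spots were quantified with Agilent Feature Extraction 11.5.1.1, per the submitters' processing notes. Per the file headers, the deposited intensity has had background and a spatial trend removed on each array, with no scaling between arrays. The flags in the deposited files are scores of 0 or 1. The deposited value table is on a log2 scale. For at least 99.7% of probes on each array it matched the log2 intensity, shifted by a constant, with a tolerance of 0.01, and its column medians were -3.71 to -3.60. Per the file headers, probes were annotated on mm9, and their coordinates are not used.

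From the intensities, 3671 control spots and spots with an outlier flag were left out, spots of a probe were averaged (55681 probes, 14 dropped, 0 saturated spots), and log2 signals were taken minus the 75th percentile of each array. A probe was used if 3 or more of the 8 arrays had it well above background. RefSeq accessions named 27650 probes through a table of assembly GRCm38.p6 and 28017 kept their identifier. Per gene the probe with the highest mean was used, which left 22685 features. Principal axes were computed on centred, unscaled values of the 7 iPSC arrays. OSKH and OSK were compared with limma 3.58.1 in R 4.3.3 on all 8 arrays, with Benjamini-Hochberg adjustment over all features at 0.05.

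Members and gene lists (35 lists, 802 of 902 genes measured) were chosen with earlier results of these data known. Named genes were, in each direction, the 15 symbol-bearing genes with the widest gap between the sides that were above background on all 7 arrays, up to 6 seen on 1 side alone, the 3 members of each list with the largest difference, and Pou5f1, Sox2, Klf4, Nanog, Zfp42, Esrrb and H1f8. Other list members that were apart, or whose role is known, were named after their values were seen, and a few members counted in the lists are not reported here by name. Lists described by counts in the text or in the closing part were those for pluripotent states, LIF, germline, chromatin, imprinting, signalling, metabolism, stress and cell types. Array numbers 1 to 3 are shared by OSKH and OSK in the titles, and arrays of the same number share a slide column. Their deviations from the group means correlated at 0.489, 0.206 and 0.365. Numbers 1 and 3 also share a side of the split, so pairing of samples cannot be told apart from a shared column or side. Array number was therefore used only as an alternative block. Alternatives tried were normexp background correction (on median signals, since the files used hold no mean signal), quantile normalization, the deposited table, 2 other filters, the mean of a gene's probes, leaving out each array, slide row and array number as blocks, and the comparison within group, slide row or slide column 3, the last chosen after seeing the data.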

Additional observations from a re-analysis of the deposited data

Results flagged for a closer look

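Of 177 named genes, list means and scores examined, single arrays stood far from the other OSKH arrays in 24 cases, judged by the gap to the nearest array divided by the range, which chance flags in about 1 in 20 groups. OSKH 1 was the outlying array for Clmp (a ratio of 0.851), Ypel2 (0.904), Nlrp4f (0.858), Il23a (0.838), Klf5 (0.836), Hormad1 (0.843), Eed (0.976), Gdf15 (0.900), Ddit3 (0.884), Hspb1 (0.851) and Herpud1 (0.833), where it was high. It was low for Fgf15 (0.834), Lypd6 (0.836), Tox3 (0.957), Psmb8 (0.834), Stard4 (0.855), Scd2 (0.849) and Ccnd1 (0.850). Since OSKH 1 is the only trio array among the OSKH arrays and most of these genes were chosen for a difference between the sides, such flags are partly built into the choice. Eed was at 6.47 on OSKH 1 and between 5.61 and 5.63 on the other OSKH arrays, and Ddit3 at 1.29 against -1.87 to -1.51. The list means of germline genes (0.916) and chromatin regulators (0.862) were outlying on OSKH 1 too, both high. OSKH 4 was outlying, and high, for Gsc (0.842), for the mean of mesendoderm genes (0.840) and for the mean of fibroblast and feeder genes (0.917). OSKH 3 was outlying for Rpl38 (0.948), at 9.12 against 8.99 on each of the others.

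In 16 cases the trio side and the quartet side differed in opposite directions in OSKH and in OSK, in every array, and these differences between the groups were not tested. The OSKH difference minus the OSK difference was -5.54 for Usp17lb, -1.79 for Usp17la, 2.25 for Dll1, 3.90 for Fgf21, 1.83 for Herpud1, 1.04 for H1f4 and 0.768 for H1f6. Usp17lb was well above background on 2 trio arrays and 1 quartet array, and Fgf21, a hormone induced by stress, on 1 and 3, so the sizes of these differences, though not those of the other genes given here, rest in part on signals not above background. For list means it was -1.95 for 2-cell-like genes, 1.08 for amino acid stress genes, 0.164 for aminoacyl-tRNA synthetases, -0.0878 for chaperones of the endoplasmic reticulum, -0.313 for p53 targets, -0.640 for Wnt genes, 0.112 for the respiratory chain, 0.191 for chromatin regulators and 0.531 for linker histones.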

How the results depend on the processing

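The trio and quartet stayed on their own sides of 0 on the first axis under all 6 processing alternatives, while 1 or 2 arrays crossed 0 when some arrays were left out (0 to 2). With normexp, 33 and 77 features were apart by at least 1 log2 unit, the median of germline genes was 0.38 and that of LIF genes 0.23. With no filter the quartet count was 448, and with probes above background on all 8 arrays the counts were 84 and 182. Without 1 array, features apart ran from 2059 to 3255 (trio higher) and 2427 to 3685 (quartet higher), and those apart by 1 log2 unit from 141 to 358 and 291 to 560. Fewer arrays make more features apart by construction, so counts within a group or row do not measure strength. Within OSKH they were 7602 and 7620, with 897 and 1069 by 1 log2 unit, and within OSK 6508 and 10443, with 204 and 330. In row 1 they were 8716 and 9559, with 971 and 1125, and in row 2 4328 and 5363, with 216 and 392. In column 3, with 1 array a side, they were 11098 and 11587, with 300 and 366. The OSKH minus OSK score ran from -45.7 to 13.0 without 1 array, and its sign turned without OSKH 4 (9.03) and without OSK 1 (13.0). Limma called 0 features for OSKH against OSK except with slide row as a block (47). With array number as a replicate block, which leaves out OSKH 4 and ESC, it called 0 features (smallest adjusted p 0.381), so this block changed no call.

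List medians without 1 array ran from 0.29 to 0.71 for naive, 0.40 to 0.57 for LIF, -0.63 to -0.39 for formative, -0.37 to -0.15 for cholesterol, 0.43 to 0.66 for germline, 0.04 to 0.09 for chromatin, -0.22 to -0.060 for imprinted and -0.13 to 1.68 for 2-cell-like genes. Medians that moved within OSKH were 0.77 (naive), -0.84 (formative), -0.93 (2-cell-like), -0.21 (imprinted), 0.46 (germline), -0.47 (cholesterol) and 0.15 (chromatin), and within OSK -0.044 (imprinted), 0.37 (germline) and -0.065 (chromatin). In rows 1 and 2 they were 0.86 and 0.15 (naive), -0.89 and -0.23 (formative), -1.28 and 1.82 (2-cell-like), 0.38 and 0.47 (germline), -0.51 and -0.11 (cholesterol), 0.80 and 0.17 (LIF), and 0.15 and 0.0076 (chromatin). In column 3 they were -0.36 (formative), 0.022 (imprinted), 0.37 (germline) and -0.13 (cholesterol). The cause of these shifts was not tested. Of 141 named genes, 26 moved by more than the spread between arrays with normexp, 5 with the mean of probes and 0 with quantile normalization. Signal over background limits folds for genes near background.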

Other observations

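Several further gene groups held members that were apart between the sides, where the background over all features is 7.69% with the trio higher and 9.54% with the quartet higher. Among 27 autophagy and lysosome genes, 4 were higher in the trio (Hexa, a lysosomal hydrolase, by 0.55, Gabarapl2 by 0.46, the cargo receptor Sqstm1 by 0.29 and the protease Ctsd by 0.21) and 1 in the quartet (Gabarapl1, -0.23). All 6 of 25 chaperones and translocon genes of the endoplasmic reticulum that were apart were higher in the quartet, Manf (-0.31), Sel1l (-0.23), Hspa5 (-0.23), Pdia6 (-0.18), Dnajb11 (-0.16) and Sec61b (-0.11), with a list median of -0.03. Of 32 cytoskeletal genes and SRF targets, 5 were apart with the quartet higher, among them Fhl2 (-1.81) and Cnn1 (-1.02), both with OSKH 3 and OSKH 4 as the highest arrays. Of 29 hypoxia-induced genes, 2 were apart with the trio higher and 4 with the quartet higher, counts near the background shares, and 24 were higher by mean in the quartet, with a list median of -0.26 that was -0.086 without OSKH 3. Of 24 Wnt genes, 2 were apart, Nkd1 (-1.05) and Ccnd1 (-0.61), both with the quartet higher, which is no more than the background share.

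Some of the features apart by at least 1 log2 unit had no gene symbol. Over all features measured, 14393 of 22685 had a symbol. Of the 128 higher in the trio 71 had a symbol, and of the 292 higher in the quartet 238 did. Probes for long intergenic noncoding RNA made up 26 of the 128 and 19 of the 292. Their share over all features is not given here, so nothing is read from these counts.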
